A study of Homo sapiens with 8 samples.

Results

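The PC3 response to TGF-β1 is described here from 2 of the 8 samples of the study, a control sample of PC3 cells and a sample of PC3 cells exposed to TGF-β1 at 5 ng/ml for 72 h. Both were chosen by their labels and not by any measured value. PC3 is a lung adenocarcinoma cell line by these labels, and its name is shared with a prostate line. The labels state that the submitters did not authenticate the lines, and that the culture medium was RPMI with fetal bovine serum. The control carried no treatment. The other 6 samples are control and TGF-β1 samples of A549, LC2/ad and PC9, 1 of each per line. Levels were measured by TaqMan quantitative PCR for 754 microRNA assays, 377 on each of 2 cards, A and B. The readout is the threshold cycle (Ct), the PCR cycle at which the signal crosses a threshold, so that 1 cycle less stands for about a doubling of the RNA. An assay that did not amplify in 40 cycles is listed at 40, and a Ct above 35 counted as not detected. Each condition was 1 sample, with 1 well per microRNA assay, so no difference within PC3 carries a replicate error and none was tested within the line.

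TGF-β1 is a secreted cytokine that binds a pair of serine/threonine kinase receptors and acts through SMAD transcription factors. In epithelial cells it drives the epithelial-mesenchymal transition, in which cells lose E-cadherin and gain mobility. MicroRNAs are short RNAs that repress messenger RNAs by pairing through the seed, the bases near their 5′ end. The miR-200 family represses ZEB1 and ZEB2, themselves repressors of E-cadherin, while ZEB factors repress the miR-200 genes. A microRNA hairpin yields a strand from each arm, and # in an assay name marks the strand that is usually the rarer one, the passenger strand.

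Several results below turn on microRNAs that share a seed, so their mature sequences are shown first, 5′ to 3′, with the seed (bases 2 to 8) in capitals. They come from RefSeq, build GRCh38.p14, which held 49 of the 50 arms sought. miR-27b, the assay with the highest difference, and miR-27a have one seed and differ only by C19U (miR-27a base first, position counted from the 5′ end).
miR-27b: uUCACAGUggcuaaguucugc
miR-27a: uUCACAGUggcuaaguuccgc
The let-7 guides share another seed. let-7d differs from let-7a by U1A and U16C, outside the seed.
let-7a: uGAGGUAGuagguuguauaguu
let-7d: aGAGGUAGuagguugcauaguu
let-7b: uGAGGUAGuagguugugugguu
let-7e: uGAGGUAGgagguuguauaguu
miR-148a, miR-148b and miR-152 also have a common seed. miR-148a against miR-148b reads C9U and U10C, and against miR-152 C9U, U10G and U20G.
miR-148a: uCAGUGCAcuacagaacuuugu
miR-148b: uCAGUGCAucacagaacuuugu
miR-152: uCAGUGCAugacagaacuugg
The passenger strands miR-19b-1# and miR-20a# are shown with the guide strands of their hairpins, since the strands of these hairpins gave different values.
miR-19b-1#: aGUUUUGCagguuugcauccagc
miR-19b: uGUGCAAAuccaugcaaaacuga
miR-20a#: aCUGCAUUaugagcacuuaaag
miR-20a: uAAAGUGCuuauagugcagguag
miR-361-5p had the lowest difference among well measured assays, and miR-33a# the lowest among assays with a mean Ct of 32 or below.
miR-361-5p: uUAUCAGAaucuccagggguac
miR-33a#: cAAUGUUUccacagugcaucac
In the miR-200 family, miR-200c, miR-200b and miR-429 have one seed and miR-141 another.
miR-200c: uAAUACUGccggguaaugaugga
miR-200b: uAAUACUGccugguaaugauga
miR-429: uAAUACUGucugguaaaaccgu
miR-141: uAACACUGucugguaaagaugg

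Detection in PC3 was nearly the same in both samples. The control detected 272 assays and the TGF-β1 sample 271, with 250 detected in both, 22 in the control alone, 21 after TGF-β1 alone and 461 in neither. Of the last, 368 were at Ct 40 in both samples. The Ct values of the 178 assays with a Ct of at most 32 in both samples had a Pearson r of 0.993 across assays, which are not independent replicates. To compare samples, each Ct was subtracted from the mean Ct of the assays detected in all 8 samples, taken per sample and card (117 assays for card A, 51 for card B). This level after TGF-β1 minus that of the control is the log2 difference.

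Differences were small throughout. Over the 178 assays with a Ct of at most 32 in both samples, the range used for counts, the log2 difference had a median of -0.04 and an SD of 0.34. In 158 of them (88.8%) it lay within 0.5 of 0, and the 5th and 95th percentiles were -0.41 and 0.67. At least 2-fold higher was 1 assay (0.562%), miR-27b, and 0 (0%) were at least 2-fold lower. By sign, 81 assays (45.5%) were higher and 97 (54.5%) lower. Scaled to U6, a small nuclear RNA used as a control, 3 assays were 2-fold higher and 0 lower, and scaled to the small nucleolar RNAs RNU44 and RNU48 1 was higher and 3 lower. Those scalings moved the median of the 178 assays to 0.13 and -0.22.

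The spread grew as the RNA became scarcer. The SD of the log2 differences was 0.17 over 20 assays with a mean Ct between 18 and 24, 0.19 over 31 between 24 and 26, and 0.20 over 32 between 26 and 28. It was 0.38 over 55 assays between 28 and 30, 0.62 over 49 between 30 and 32 and 0.84 over 63 between 32 and 35. Only U6 had replicate wells, so the part of well to well error in this spread was not tested. Of the 20 assays with the highest and lowest differences, 1 had a mean Ct under 28, and their median mean Ct was 29.9 against 28.3 for all 178.

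**Figure D1:**
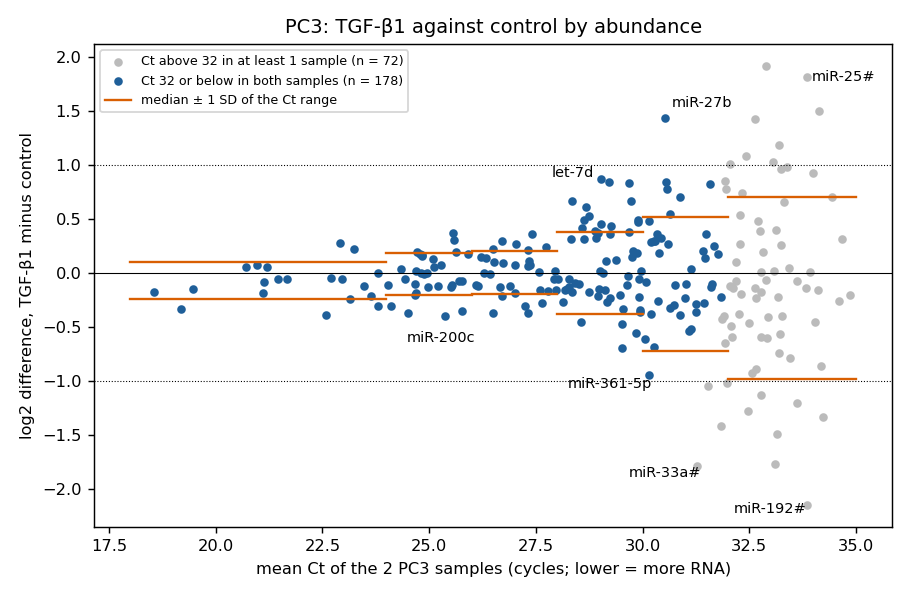
The log2 difference in PC3 (TGF-β1 minus control, vertical axis) is plotted against the mean Ct of both samples in cycles (horizontal axis), 1 point per assay detected in both. Blue points are the 178 assays with neither Ct above 32, grey points the other 72, orange lines the median ± 1 SD of each Ct range, and dotted lines 2-fold. The points fan out above a Ct of 28, and miR-27b is the only blue point beyond a dotted line.

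The most abundant microRNAs lay close to the control. miR-17, of the proliferation-linked cluster on chromosome 13, had a Ct of 20.75 in the control and 20.69 after TGF-β1. miR-106a, its paralog on the X chromosome, had 21.0 and 20.92, and miR-19b 21.23 and 21.17. miR-24 had 21.1 and 21.18, miR-222, which targets the cell cycle inhibitor p27, 21.43 and 21.48, and miR-30c 21.65 and 21.7. These 6 differed by -0.08 to 0.08 on the log2 scale. miR-191 had 21.02 and 21.2 (-0.18). The assays with the lowest Ct of all were miR-1274B at 18.45 and 18.68, miR-1274A at 19.0 and 19.39 and miR-720 at 19.37 and 19.57, sequences now regarded as transfer RNA fragments. Their log2 differences were -0.18, -0.34 and -0.15. Over all 83 assays with a mean Ct of 28 or below the differences ran from -0.40 to 0.37, with an SD of 0.19. At the ends of that range, chosen after the values were seen, were miR-200c at -0.40 and miR-30a-3p at -0.39, and miR-214 at 0.37, miR-31 at 0.36 and miR-195 at 0.31.

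miR-27b had the highest difference. Its Ct was 31.25 in the control and 29.81 after TGF-β1, a log2 difference of 1.44, or 2.71-fold. The value ran from 1.11 to 1.66 over the 7 normalizers compared. Its mean Ct of 30.53 lay in the range from 30 to 32, where the SD was 0.62 over 49 assays. The mature miR-27b lies at chr9:95085505-95085525 on the plus strand (GRCh38.p14), within the bounds of AOPEP, 141 bases from MIR23B and 480 from MIR24-1. Its neighbours and relatives did not share the value. miR-23b did not amplify in either sample, and miR-24, which is made from this cluster and from a second one on chromosome 19, had -0.08. miR-27a, from the chromosome 19 cluster, was far more abundant, with Ct 24.91 and 24.74, and had 0.17. How far each assay also reads the other microRNA, 1 base apart, was not tested. miR-23a, of the chromosome 19 cluster, had Ct 34.8 and 34.09 (0.71), in the range where the SD was 0.84. In the other lines miR-27b had 0.58 in A549, 0.24 in LC2/ad and -0.75 in PC9.

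let-7d came second on the higher side, with Ct 29.45 and 28.58 and a log2 difference of 0.87 (0.54 to 1.09 over the normalizers). It had 0.21 in A549, -1.13 in LC2/ad and 0.27 in PC9. let-7 microRNAs repress RAS and HMGA2 messenger RNAs and are known as brakes on growth. All 8 guides carry the same seed and were detected in both samples, and they went different ways. let-7a had Ct 29.76 and 30.12 (-0.36), let-7b 27.12 and 27.49 (-0.37), let-7c 29.12 and 29.35 (-0.23) and let-7g 25.6 and 25.95 (-0.35). let-7e had 25.73 and 25.53 (0.20). let-7f, at Ct 32.54 and 32, had 0.54, and miR-98, at 32.41 and 32.14, had 0.27. The mature let-7d lies on chromosome 9 beside let-7a and let-7f, 2798 bases from MIRLET7A1 and 2401 from MIRLET7F1, though both of those are also made from other loci. At Ct 32 or below, 2 of 6 guides were higher and 4 lower, where 45.5% of all 178 assays were higher. Their median was -0.29, against -0.04 for all 178 assays. That median stayed below 0 under the 7 normalizers, from -0.62 to -0.07.

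miR-148a, a repressor of DNMT1 among other targets, had Ct 30.1 and 29.26 and a log2 difference of 0.84 (0.51 to 1.06). Its seed relatives did not share it. miR-148b had Ct 30.96 and 31.06 (-0.10) and miR-152 30.88 and 31.11 (-0.23). The miR-15 and miR-16 relatives, which target BCL2 and cyclins, were likewise mixed. miR-497 had Ct 30.79 and 31.38 (-0.54), and miR-195, with the same seed and from the same cluster on chromosome 17, had 25.73 and 25.42 (0.31). miR-16 had -0.24 and miR-15b 0.10.

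The remaining members of the 10 highest differences had 0.67 to 0.84. One of the pair of assays named miR-550 had Ct 30.94 and 30.15 (0.84), while the other assay of that name was not among the 10 highest. miR-494, of the imprinted 14q32 cluster, had 31.23 and 30.52 (0.71), against -0.26 in A549, -0.18 in LC2/ad and -0.67 in PC9. miR-197 had 28.67 and 28 and miR-194, known from intestinal and liver epithelium, 30.06 and 29.39 (both 0.67). miR-197 had 0.90 in A549, 0.15 in LC2/ad and 0.46 in PC9. The others, miR-19b-1#, miR-20a# and miR-130b#, are passenger strands and are described with their arms.

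On the lower side miR-361-5p, from an X-linked hairpin within the bounds of CHM, had Ct 29.68 and 30.62, a log2 difference of -0.94 (-1.27 to -0.72 over the normalizers). The other arm of this hairpin, miR-361-3p, was detected in the control alone, with Ct 34.22 and 40, at least 1.65-fold lower. With the same normalizer miR-361-5p had -0.90 in A549, -0.24 in LC2/ad and -0.70 in PC9. miR-652, another X-linked microRNA, had Ct 29.93 and 30.61 (-0.68), and -0.93, -0.64 and -0.36 in the same order. miR-324-5p, described as a repressor of GLI1, had Ct 29.18 and 29.87 (-0.69), against 0.94 in A549, -1.21 in LC2/ad and 0.79 in PC9. miR-340# had -0.61, miR-664 -0.56, miR-95 -0.52, miR-452 -0.47 and miR-30d -0.46. miR-200c closes the 10 lowest at -0.40. All 20 named differences kept their sign under each of the 7 normalizers. Each normalizer shifts all assays of a card by the same amount. Differences larger than these shifts could not change sign, and error in single wells was not tested.

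**Figure D2:**
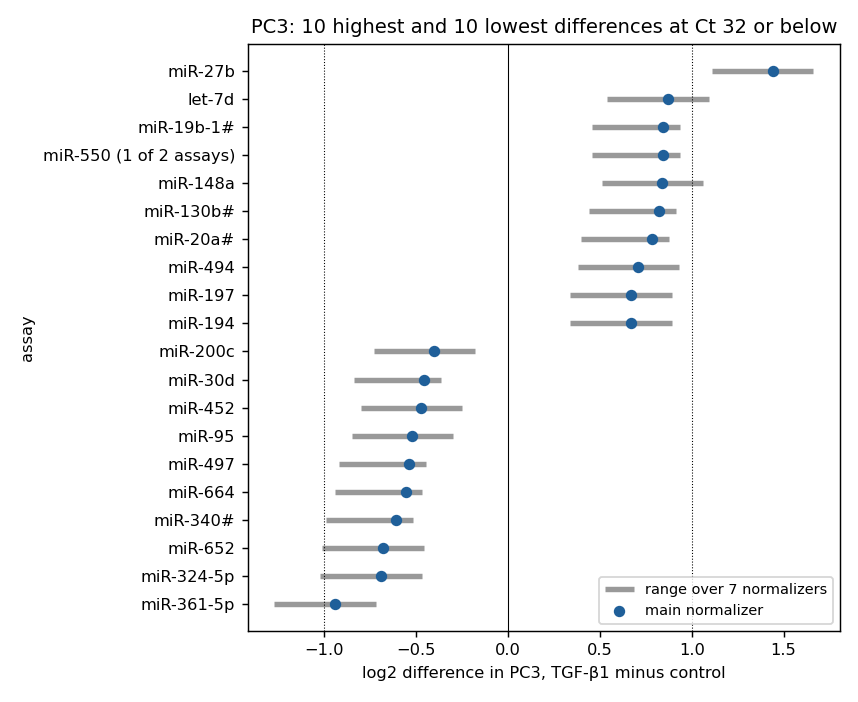
The 10 highest and 10 lowest log2 differences in PC3 (horizontal axis, TGF-β1 minus control) are shown for assays with both Ct values at most 32, 1 assay per row. Blue points use the mean of microRNAs as normalizer, grey bars span the 7 normalizers and dotted lines mark 2-fold. The bars do not cross 0, and miR-27b alone stays beyond 2-fold over its whole bar (1.11 to 1.66). The bars show shifts common to all assays of a card and not the error of single wells.

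A limit of Ct 32 in both samples leaves out assays that cross it, which bears on the lower side. With the mean Ct of both samples at 32 or below in its place, 187 assays entered, of which 1 (0.535%) was higher by 2-fold or more and 4 (2.14%) lower by 2-fold or more. miR-33a#, the passenger strand of a hairpin within the bounds of the cholesterol regulator gene SREBF2, had Ct 30.35 and 32.19 (-1.79, or 3.45-fold lower). Its guide strand miR-33a was above the limit in both samples, at 40 and 37.14. miR-1227 had Ct 31.1 and 32.57 (-1.42), miR-505# 30.99 and 32.09 (-1.05) and miR-96, of the sensory miR-183 cluster, 31.47 and 32.49 (-1.02). The neighbours of miR-96 had other values, with 0.55 for miR-183 (Ct 30.92 and 30.37) and -0.21 for miR-182 (28.85 and 29.06). At Ct 35 or below in both samples, 9 of 250 assays (3.6%) were at least 2-fold higher and 11 (4.4%) lower. The ends of that range, chosen after their values were seen, were miR-576-3p at 1.92 (Ct 33.84 and 31.92) and miR-192# at -2.15 (32.74 and 34.94).

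The 43 assays detected in 1 sample alone were all near the limit, with Ct 33.37 to 35 where detected. The other sample was at 40 for 12 of the 22 in the control alone and 7 of the 21 after TGF-β1 alone, and within 1 cycle above 35 for 12 of the 43. A bound of at least 2-fold was reached by 5 and 6 of them. miR-508-3p had Ct 40 in the control and 33.37 after TGF-β1 (at least 3.09-fold higher). miR-505 had 33.41 and 40 (at least 3.01-fold lower), in the same direction as its passenger strand miR-505#. miR-203, a microRNA of differentiating epithelium, had 33.53 and 40 (at least 2.77-fold lower). miR-551b had 36 and 33.63, miR-545# 36.73 and 33.9, and miR-584 40 and 33.95. miR-92b# had 33.75 and 40, miR-941 33.84 and 36.47, and miR-548d-5p 33.96 and 38.71. These Ct values rest on few template molecules, and no assay was at 32 or below in one sample and undetected in the other.

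The microRNAs tied to the epithelial-mesenchymal transition showed no common direction in PC3. miR-200c had Ct 25.18 and 25.58 (-0.40, or 1.32-fold lower; -0.73 to -0.18 over the normalizers). miR-141, made from the same transcript 331 bases away, had 30.6 and 30.27 (0.33). From the chromosome 1 cluster, miR-200b had 34.53 and 35.87 and miR-429 36.52 and 33.94 (at least 2.08-fold higher), each detected in a different sample, while miR-200a and miR-205 did not amplify. miR-429 and miR-200b lie 1807 bases apart. miR-375, an epithelial and neuroendocrine microRNA, had 29.64 and 29.67 (-0.03).

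Of microRNAs described elsewhere as raised by TGF-β, with both arms counted, 8 were at Ct 32 or below, 4 higher and 4 lower. That is near the share of all 178 assays, of which 45.5% were higher and 54.5% lower. Their median was 0.00 against -0.04 for all assays. The 6 guides among them had 3 higher and 3 lower. miR-21, whose processing SMAD proteins promote in other cells, had Ct 25.15 and 25.02 (0.13; -0.20 to 0.35 over the normalizers). miR-10b had 25.14 and 25.08 (0.06), miR-181a 30.47 and 30.79 (-0.32) and miR-192 28 and 28.05 (-0.05). miR-155, a microRNA of immune cells, had 34.89 and 33.39 (1.5), outside the range used for counts. For microRNAs described as targeting receptors or SMADs of the pathway, with both arms counted, 11 of 18 assays were higher and 7 lower. Their median was 0.10, while 45.5% of all 178 assays were higher. That median ran from -0.20 with RNU44 and RNU48 to 0.23 with U6. The 15 guides alone had 8 higher and 7 lower, with a median of 0.06, and the 3 passenger strands were all higher. miR-146a, which targets SMAD4, had 30.45 and 30.15 (0.30), and miR-224 28.16 and 28.31 (-0.15).

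The 14q32 microRNAs, to which miR-134, miR-487b and miR-655 of the series title belong, were mostly not detected in PC3. Of 60 assays 56 were detected in neither sample, against 461 of all 754 assays, and these 3 microRNAs were at 40 in both. Besides miR-494, miR-432# was detected in both samples, with Ct 33.7 and 32.79 (0.96). After TGF-β1 alone, miR-376a had Ct 40 and 34.15 and miR-323-3p 35.7 and 34.08, both near the limit.

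The miR-17 cluster and its paralogs had 11 guides at Ct 32 or below, 6 higher and 5 lower, where 45.5% of all 178 assays were higher. They ran from -0.30 for miR-19a to 0.22 for miR-93. Their median of 0.06 was -0.27 with RNU44 and RNU48 and -0.09 with all control RNAs. In the miR-30 family 7 of 7 assays at Ct 32 or below were lower, against 54.5% of all 178 assays, from -0.46 for miR-30d to -0.01 for miR-30a-5p, with a median of -0.13. Scaled to U6, miR-30c had 0.17 and miR-30b 0.01, and miR-30a-5p had 0.01 to 0.08 under 3 other normalizers. miR-29a, a repressor of collagen genes, had Ct 23.05 and 22.77 (0.28), and miR-29c 30.22 and 30.48 (-0.26). miR-221 had 26 and 25.82 (0.18). In the list of miR-99, miR-100 and miR-125, miR-99b had 29.09 and 28.7 (0.39), miR-100 28.48 and 28.16 (0.32), miR-125b 26.61 and 26.39 (0.22), miR-99a 29.96 and 29.94 (0.02) and miR-125a-5p 26.08 and 26.2 (-0.12). Its passenger strands miR-99a# and miR-99b# had -0.38 and -0.09, and miR-125a-3p, with Ct 33.78 and 32.59, had 1.19. Of the 19 family lists with an assay at Ct 32 or below, 11 had a median above that of all assays and 3 the same median. The medians of lists with more than 1 such assay lay between -0.29 for let-7 and 0.18 for miR-221 with miR-222.

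The measured differences of both strands of a hairpin were not correlated. In 31 pairs with both arms at Ct 32 or below, the log2 differences of the arms had a Pearson r of -0.06 and a Spearman rho of -0.03, and 17 pairs had the same sign. The pairs share their samples, and most are read on different cards. Each arm was read in 1 well per sample, and the part of well and card error in these values was not tested. The median absolute gap between arms was 0.33. It was largest for miR-324, whose 5p arm had -0.69 and whose 3p arm, with Ct 28.78 and 28.36, had 0.42, both on card A. miR-19b-1# had Ct 29.6 and 28.81 (0.84) beside 0.06 for miR-19b, and miR-20a# 30.94 and 30.21 (0.78) beside -0.05 for miR-20a. miR-130b# had 31.96 and 31.19 (0.82) beside -0.09 for miR-130b, and miR-222# 28.95 and 28.39 (0.61) beside -0.05 for miR-222.

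In the miR-17 list the 4 passenger strands at Ct 32 or below were all higher, with a median of 0.48, where 45.5% of all 178 assays were higher. miR-93# and miR-106b# make up the lower part, with Ct 24.85 and 24.73 (0.17) and 27.31 and 27.3 (0.06). With the median of microRNAs as normalizer, which moved card B down, the list's passenger median was 0.10 and the values of miR-93# and miR-106b# were -0.21 and -0.32. With U6, miR-106b# had -0.07. Above Ct 32 in a sample, miR-25# had 34.73 and 32.97 (1.81), miR-92a-1# 32.52 and 31.56 (1.01) and miR-18a# 31.95 and 32.12 (-0.12). All passenger strands named here are on card B, whose 26 passenger assays at Ct 32 or below had a median of 0.09 against -0.13 for its 29 other assays. With the median normalizer these were -0.29 and -0.51. Guide and passenger strands of these hairpins differ in abundance as well, and the part of abundance in the gap was not tested.

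**Figure D3:**
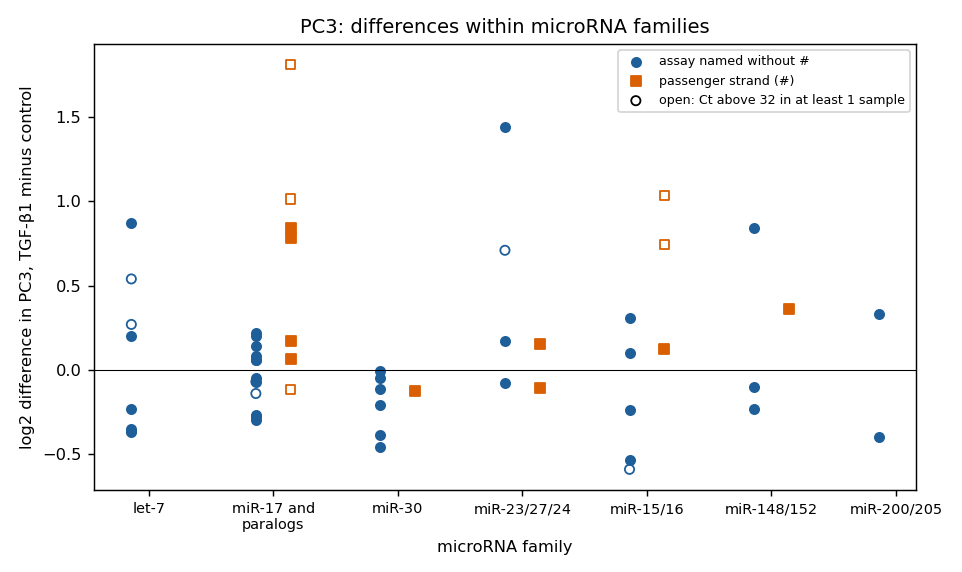
Each point is the log2 difference in PC3 (vertical axis, TGF-β1 minus control) of 1 assay detected in both samples, grouped by microRNA family (horizontal axis). Blue circles are assays named without #, orange squares passenger strands, and open symbols have a Ct above 32 in at least 1 sample. Guides of the miR-17 list lie between -0.30 and 0.22, while its filled passenger squares reach 0.84, and the let-7 guides spread from -0.37 to 0.87 despite one seed.

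The levels bear on what PC3 is as a model. For comparison with the marker counts, 272 of all 754 assays were detected in the control and 271 after TGF-β1. Of 11 epithelial marker assays 4 were detected in each sample, with miR-200a and miR-205 at 40. Their summed level, in units of an RNA at the normalizer's Ct, was 5.08 in the control and 3.96 after TGF-β1. Most of that sum was miR-200c, at Ct 25.18 and 25.58, as the other epithelial markers detected had a Ct of 29.64 or above. Of 9 fibroblast and smooth muscle assays 4 were detected in each, led by miR-199a-3p at Ct 25.14 and 25.26 and miR-214 at 25.74 and 25.37. miR-143 and miR-145, abundant in smooth muscle, were above 35 in both samples. The fibroblast and smooth muscle assays at Ct 32 or below had a median of 0.37 over 3 assays, and the summed level of the list was 8.92 and 9.80. Of 9 nerve assays 5 were detected in each sample, of 4 striated muscle assays 0 in the control and 1 after TGF-β1, and of 2 endothelial assays both. Blood markers were detected in 0 of 9 assays and liver markers in 0 of 2. miR-9, known from neural cells, had 24.36 and 24.32, and miR-126, known from endothelium, 23.66 and 23.96. In RNA from a whole culture, fewer cells of a type and less RNA per cell cannot be told apart.

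The control RNAs set the limits of scaling. U6 on card A had a mean Ct of 18.6 ± 0.15 (SD, n = 4 wells) in the control and 18.9 ± 0.65 (SD, n = 4 wells) after TGF-β1, where 1 well stood at 19.79. Without that well the second mean was 18.55. On card B the means were 18.63 and 18.55. RNU44 was 0.45 cycles lower after TGF-β1 on card A and 0.37 higher on card B, and RNU48 was 0.21 and 0.08 lower. Differences between the cards for one RNA were therefore as large as many of the microRNA differences above.

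The spread of PC3 was set against that of the other lines. In the 110 assays that every one of the 8 samples had at a Ct of at most 32, the SD of the log2 differences was 0.29 in PC3, 0.46 in PC9, 0.54 in A549 and 0.72 in LC2/ad. At least 2-fold apart were 1, 7, 7 and 18 of these assays in the same order. The SD was lower in PC3 than in each other line in all 6 ranges of mean Ct. Among 4 lines the exact permutation test cannot go below a one-sided p of 0.25, which is the value it gave. Card A assays such as miR-203 have Ct values with more decimals in A549 and the LC2/ad control than in the other samples. The miR-203 Ct is 32.8947 in the LC2/ad control and 31.31 in its TGF-β1 sample. Whether these values were handled differently, and what that adds to the spread of those lines, was not tested.

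Whether single microRNAs differed in PC3 from the other lines was tested with limma on the differences within each line. The lone PC3 difference was assumed to vary like those of the other 3 lines. Of 235 assays tested, 0 (0%) were higher and 0 (0%) lower at an adjusted p of 0.05, and the smallest adjusted p was 0.930. Before adjustment 8 assays had a p under 0.05, 3 with a higher difference in PC3 and 5 with a lower one. The median SE of the contrast was 0.56.

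The smallest p values belonged mostly to assays above Ct 32 in PC3. miR-193b# had Ct 32.79 and 33.58 in PC3 (-0.74) against 0.96 in A549, 1.52 in LC2/ad and 1.2 in PC9. Its contrast was -1.96 (SE 0.48, limma adjusted p = 0.930). miR-15a had Ct 31.8 and 32.39 (-0.59), against 2.35, 0.88 and 2.72 in the same order. The passenger strands from this chromosome 13 pair, miR-15a# with Ct 32.67 and 31.98 (0.74) and miR-16-1# with 33.55 and 32.57 (1.03), went the other way from the other lines, whose means were -1.29 and -1.09. miR-31#, the best measured of the 10, had Ct 29.78 and 30.05 (-0.22) and a mean of 1.24 elsewhere. miR-155 had a mean of -0.67 elsewhere and miR-203 1.04. The others of the 10 were miR-192#, miR-432# and rno-miR-29c#. Bounds enter the contrasts of miR-15a#, miR-16-1#, miR-155, miR-203 and miR-192#.

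The authors' deposited table gives a fold of TGF-β1 over control for each PC3 assay. It was recovered from the Ct values, scaled to the average U6 Ct of the card and with 40 kept as a value, with a largest log2 difference of 4.28e-08. By the folds of the authors' deposited table, 66 of its 754 assays (8.75%) lay 2-fold or more above the control and 68 (9.02%) below it. Of these 134, 116 had a sample above Ct 35 and 80 a sample at 40. At Ct 32 or below in both samples the authors' deposited table has 3 assays 2-fold higher, miR-27b at 3.17, let-7d at 2.13 and miR-148a at 2.09, and 0 lower. Assays at 40 in both samples are listed there at 1.17 on card A (151 assays) and 0.944 on card B (217 assays), the ratio of the U6 values alone. The single U6 well at 19.79 enters every card A fold of that table.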

How the data were processed

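The authors deposited raw Ct values (handled as scores), a ratio calibrated to A549 and a fold per line, per the file headers. RNA was extracted with TRIzol and PCR ran for 40 cycles, per the labels' protocols. Groups follow title and treatment, since the source name words the exposure the other way round. A Ct above 35 was set to 35, so 1 undetected sample gives a bound. Counts used Ct 32 or below in both samples and 2-fold. The only fit across assays was limma 3.58.1 (R 4.3.3, Benjamini-Hochberg, two-sided), with the cell line as the block, tested on simulated data. Same-line samples deviated together in PC3 (r = 0.94 over 168 assays, -0.13 at most with another line). In LC2/ad the same r was 0.81, against up to 0.75 with another line. Named were the 10 highest and 10 lowest differences, the 10 lowest Ct, up to 10 assays detected in 1 sample, the 10 smallest p, fixed microRNAs and list members. Members and lists were chosen with earlier results of these data known. Normalizers, Ct limits and lines were varied. Intervals need replicates and are not given. Instrument software is not given in the sources used here.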

Additional observations from a re-analysis of the deposited data

How the results depend on the processing

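With 1 sample and 1 well per assay, the depth of single values is limited by the Ct, and p values exist only for lines set against each other. The count of assays at least 2-fold apart, 1 at Ct 32 or below, was 0 at Ct 30 or below, 20 at Ct 35 or below and 5 by the mean Ct, the last chosen after seeing the data. It was 4 with RNU44 and RNU48, 3 with U6, 2 with all control RNAs and 134 in the authors' deposited table, which keeps 40 as a value. It stayed at 1 with the median normalizer, the mean of assays detected in PC3, the median U6 well (also chosen after seeing the data) and Ct limits of 32 and 37. The 43 assays detected in 1 sample alone became 19 with a Ct limit of 32 and 69 with 37. The SD over assays ran from 0.26 at Ct 30 or below to 0.54 at Ct 35 or below. The test against the other lines gave 0 calls in all 14 settings, each other line left out in turn included (range 0 to 0), and the smallest adjusted p was 0.187 (limma, Ct limit 37). Without the cell line as a replicate block it also gave 0 calls, with 1 assay at an unadjusted p under 0.05. Over the named values, list medians and contrasts with the other lines, 540 were labelled as kept. Named values and medians were kept if they moved by less than the pooled SD of the U6 wells (0.34). That bar rests mainly on the card A wells after TGF-β1 (SD 0.65), which include the well at 19.79. The other sets of U6 wells had SDs of 0.15, 0.06 and 0.10. With RNU44 and RNU48, card A values moved by just under the bar and so count as kept. Contrasts were kept if their sign and call stayed, however far they moved. The contrast of miR-15a, for example, was -0.45 with a Ct limit of 32 against -2.57. Another 27, all named values or medians, moved by more than the pooled SD, 10 with a Ct limit of 37 and 17 with the median normalizer. The value of miR-27b kept its sign under each normalizer, but it was larger than any of these shifts, which all assays of a card share.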
